A study of Mus musculus with 30 samples.

Results

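Gabra2, Gabra3, Gabra5, Gabrb1, Gabrb2, Gabrg1 and Gabrg3 encode alpha, beta and gamma subunits of the GABA-A receptor, and they are 7 of the 22609 genes counted in each library. They were chosen to describe the receptor's subunit composition in dorsal root ganglia (DRG) and to see whether Gabra2 differed between the prolactin (PRL) and vehicle (Veh) arms without its partners. Gabra2 was picked because its DRG reads had been seen to be higher with PRL. The member values that compare PRL with Veh in DRG are therefore a description here and carry no test.

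The data are 30 RNA-seq libraries from DRG and hind paw of C57BL/6J mice aged 10 to 12 weeks, in 10 groups of 3. The 4 female and 4 male groups are DRG or paw after PRL (1 µg into the paw) or Veh (PBS by the same route), all prepared from 500 ng of rRNA-depleted RNA. A further 2 female groups, DRG and paw labelled PRL_Sh, also received PRL, and their libraries were made from selected mRNA. Sh is not explained by the labels, whose protocol describes both a single injection and 12 daily injections without saying which libraries had which. By label 18 libraries are female and 12 male, the reverse of the series text, and Xist and Y-linked reads matched the label in 30 of 30. Nothing says that replicates came from separate animals, so p-values here measure the spread between samples, which may be technical.

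GABA-A receptors are pentameric chloride channels, most often built of alpha, beta and gamma subunits. The alpha subunit shapes GABA affinity, kinetics and benzodiazepine sensitivity. Cell bodies and central terminals of primary sensory neurons carry these receptors, and because sensory neurons hold much intracellular chloride, channel opening depolarises them. At the central terminals this produces presynaptic inhibition. PRL is a pituitary hormone whose receptor signals through JAK2 and STAT5.

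Gene reads ran from 8986530 to 13327072 in the 12 rRNA-depleted DRG libraries, from 6866545 to 13470783 in the 12 rRNA-depleted paw libraries, and from 21795035 to 26515208 in the 6 mRNA libraries. All 15 neuronal markers had reads in DRG. Their summed level in the rRNA-depleted libraries was 11339 to 14705 CPM (read counts scaled to library size, TMM-adjusted for single genes but not for marker sums). The same markers summed to 38.7 to 827.0 CPM in rRNA-depleted paw, where keratinocyte markers summed to 25508 to 49878 CPM. In bulk tissue, fewer cells of a type and less RNA per cell cannot be told apart.

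The subunit mixture of Veh DRG was read from levels per kilobase of exon (CPM per kb), since only these compare genes of different length. Over the 6 Veh DRG libraries Gabrb2 stood highest of the 7 chosen genes at 7.65 ± 0.54 CPM per kb (SD, n = 6), with Gabrg1 at 7.26 ± 0.76 overlapping it. Gabra3 came next at 5.05 ± 0.53 and overlapped Gabra2 at 4.29 ± 0.47. Gabra5 lay below both at 1.87 ± 0.33 CPM per kb. Gabrb1 at 0.164 ± 0.046 and Gabrg3 at 0.0489 were 13th and 17th of the 19 subunit genes. Their ranks depend on the length used, and by coding length they were 9th and 13th.

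So among the chosen genes the beta-2 and gamma-1 messages lay side by side above the alpha-2 and alpha-3 messages, which also lay side by side. Of the 19 subunit genes Gabrb2 was 4th and Gabrg1 5th, below subunits that are not reported here. Dividing by coding length instead put Gabrg1 before Gabrb2 and Gabra2 before Gabra3, which means that neither pair has a firm order. Gabra6 and Gabrp had 0 reads in Veh DRG.

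Gabra2 encodes alpha-2, a subunit known from studies of spinal analgesia by benzodiazepine-site ligands. Its female DRG libraries read 21.4, 23.7 and 24.5 CPM with Veh and 57.6, 56.8 and 59.1 CPM with PRL. The male DRG libraries read 25.5, 25.8 and 29.7 CPM with Veh and 60.6, 70.6 and 62.3 CPM with PRL. Every PRL library lay above every Veh library in both sexes, and the spread within an arm was small against the gap between arms. These levels rest on 224 to 336 reads a library with Veh and 544 to 682 with PRL. The log2 difference of PRL from Veh was 1.32 ± 0.08 (SE) in females and 1.26 ± 0.08 in males.

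Of the 6 members with enough reads for the DRG fit, 1 passed an adjusted p of 0.05 in edgeR, and it was Gabra2 in females, in males and in their average. Over all 14705 genes fitted, 0.653% passed in females, 0.517% in males and 3.6% in the average. Because Gabra2 was chosen from this contrast, nothing is read from that count.

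**Figure D1:**
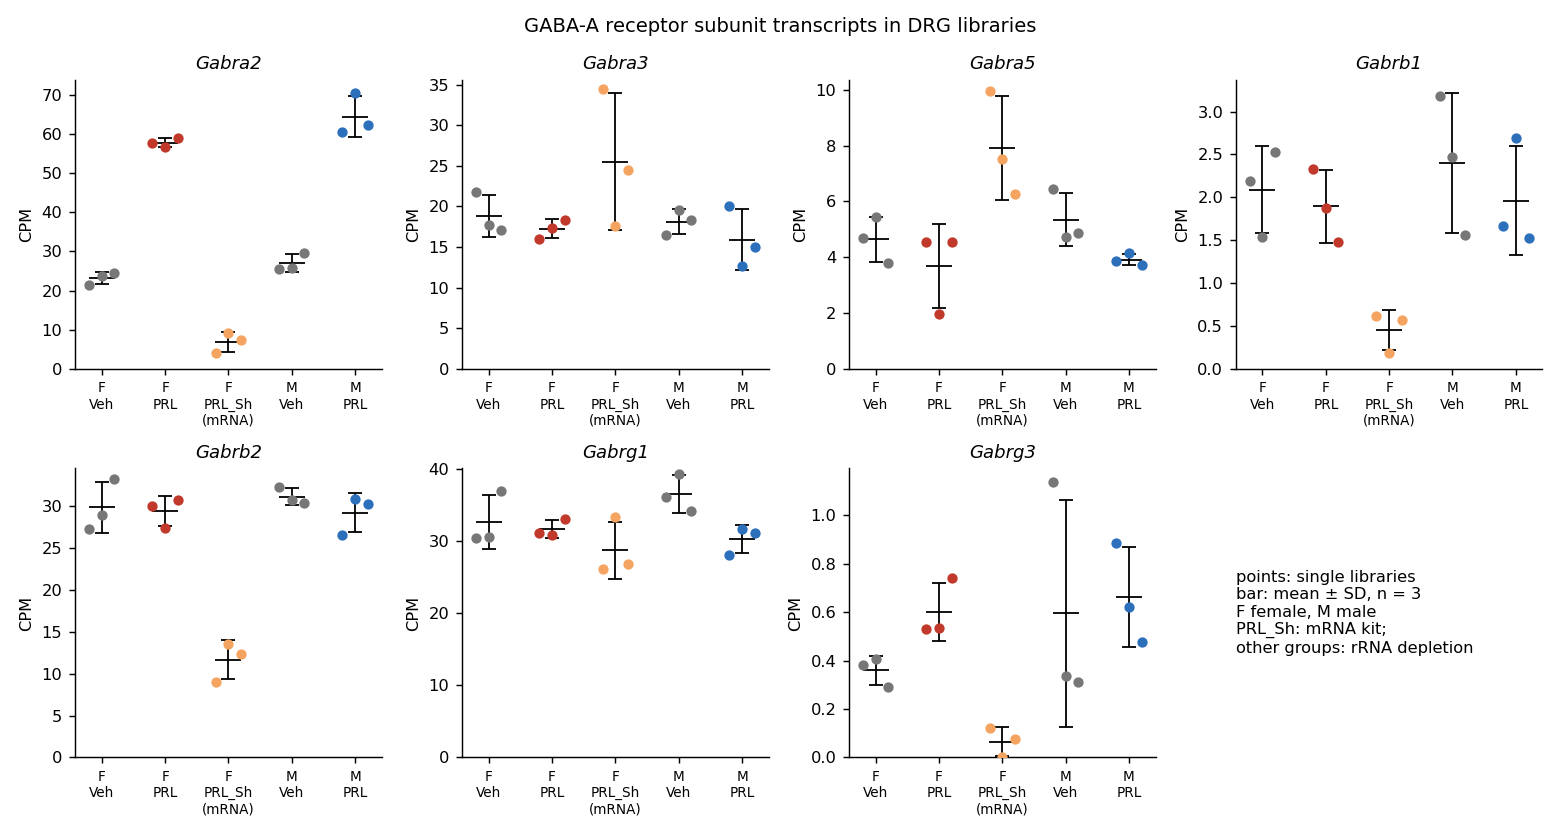
Levels of the 7 subunit genes in the 15 DRG libraries (CPM, TMM-scaled), 1 panel per gene, by group; points are libraries and bars show the mean ± SD (n = 3). Gabra2 lies at 21.4 to 29.7 CPM in the 6 Veh libraries and at 56.8 to 70.6 CPM in the 6 rRNA-depleted PRL libraries.

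The promoter of Gabra2 is shown because its level separated the arms in both sexes, with that of Gabrg1, its nearest neighbour on chromosome 5, for comparison. Both are the 250 bases before the gene's RefSeq start on GRCm38.p6, minus strand, written 5′ to 3′ at chr5:71095850-71096099 for Gabra2 and chr5:70842618-70842867 for Gabrg1. Capitals mark a match to TTCNNNGAA, the letters of a STAT5 site, searched on both strands.
Gabra2: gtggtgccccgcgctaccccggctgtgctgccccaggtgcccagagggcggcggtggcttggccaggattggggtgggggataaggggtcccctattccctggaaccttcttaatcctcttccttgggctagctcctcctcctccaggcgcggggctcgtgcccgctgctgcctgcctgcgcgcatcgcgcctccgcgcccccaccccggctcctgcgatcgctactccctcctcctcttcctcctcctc
Gabrg1: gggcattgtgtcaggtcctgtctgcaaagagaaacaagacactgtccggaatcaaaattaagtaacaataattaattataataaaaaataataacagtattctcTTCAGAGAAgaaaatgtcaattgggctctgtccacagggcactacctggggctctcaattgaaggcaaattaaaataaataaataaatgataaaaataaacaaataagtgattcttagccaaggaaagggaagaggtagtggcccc

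The Gabra2 window is 70.0% G and C with 18 CpG pairs, the Gabrg1 window 35.6% with 1. No TTCNNNGAA was found in the Gabra2 window, which says only that these letters are not there. The Gabrg1 window holds 1 match, starting 146 bases before the start site, and 7.02% of the 32851 RefSeq promoter windows of the same length hold at least 1. All 7 members had RefSeq windows, 11 in all, and the Gabrg1 match was the only one of this motif among them. TATAAA, also searched on both strands, was found in 12.4% of all windows. It was present in both windows of Gabra3, which overlap and hold the same match, and in 1 of 3 of Gabrb2.

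Gabra2, Gabrb1, Gabrg1 and Gabra4 form a cluster on chromosome 5. In RefSeq order Gabrg1, Gnpda2, Guf1 and Yipf7 lie on one side of Gabra2 and Cox7b2, Gabra4, Gabrb1 and Commd8 on the other. The log2 difference of PRL from Veh in DRG was -0.09 in females and -0.06 in males for Gnpda2, -0.12 and 0.09 for Guf1, and -0.07 and -0.05 for Commd8. It was -0.04 and -0.27 for Gabrg1, and 0.13 and -0.17 for Gabra4, which had only 3 to 26 reads a library. Cox7b2 had 0 to 2 reads a library and was not fitted. Yipf7 had 0 to 40 reads a library, and its differences of 3.13 in females (adjusted p = 0.302, edgeR) and 0.90 in males did not pass.

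Gabra3 encodes alpha-3, found in monoaminergic and reticular thalamic neurons as well as in sensory ganglia. Female DRG gave 21.8, 17.7 and 17.1 CPM with Veh and 16.0, 17.4 and 18.3 CPM with PRL. Male DRG gave 16.5, 19.5 and 18.4 CPM with Veh and 20.1, 12.6 and 15.0 CPM with PRL. The arms overlapped in both sexes, with log2 differences of -0.13 ± 0.15 and -0.19 ± 0.15 (SE).

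Gabra5 encodes alpha-5, known for extrasynaptic receptors that carry tonic current. Its female DRG libraries gave 4.67, 5.44 and 3.80 CPM with Veh and 4.56, 1.96 and 4.56 with PRL, and the arms overlapped. The male libraries gave 6.45, 4.71 and 4.87 CPM with Veh and 3.88, 4.14 and 3.73 with PRL. In males every PRL library was below every Veh library, at a log2 difference of -0.46 ± 0.27 (SE), against -0.35 ± 0.28 in females.

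Among beta subunits, which complete the GABA site with alpha, Gabrb2 was the most even of the 7 across the arms. Female DRG gave 27.4, 29.0 and 33.3 CPM with Veh and 30.1, 27.5 and 30.8 with PRL. Male DRG gave 32.3, 30.8 and 30.4 CPM with Veh and 26.6, 30.8 and 30.3 with PRL. The log2 differences were -0.02 ± 0.09 in females and -0.09 ± 0.09 in males (SE). Gabrb1, the scarce beta-1 message, lay between 1.48 and 3.18 CPM in these 12 libraries with overlapping arms, at -0.13 ± 0.34 and -0.31 ± 0.33.

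Gabrg1 encodes gamma-1, a subunit whose receptors have low benzodiazepine affinity and which glia as well as neurons express. Female DRG gave 30.4, 30.6 and 37.0 CPM with Veh and 31.1, 30.9 and 33.2 with PRL, overlapping. Male DRG gave 36.2, 39.4 and 34.2 CPM with Veh and 28.1, 31.7 and 31.2 with PRL, where all 3 PRL libraries were the lower ones. The log2 differences were -0.04 ± 0.09 and -0.27 ± 0.09 (SE). Gabrg3, the gamma-3 message, had 3 to 15 reads a library, or 0.292 to 1.14 CPM, and was too low for the fit.

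Counted over the 6 fitted members, 1 in females and 3 in males (Gabra2, Gabra5 and Gabrg1) had arms that did not overlap, where 15.5% of all fitted genes in females and 19.3% in males did not overlap. The members' median log2 difference was -0.09 in females and -0.23 in males, beside 0.00 over all genes in males and -0.00 in females. Nothing is read from these, since the contrast chose the members.

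The subunits that were not chosen gave the rest of the composition. Of the other 12, 6 had enough reads in DRG, and 0 passed in females, in males or in their average by edgeR. At an unadjusted p under 0.05 there were 0, 1 and 2, and DESeq2 called 0 in each. Gabre differed by -0.52 in females and 0.36 in males on the log2 scale, and Gabrr2, a rho subunit, by -0.61 and -0.99. The median of the 6 was -0.11 in females and -0.15 in males.

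The wider GABA list of 25 genes covers synthesis, transport, breakdown, GABA-B receptors, receptor anchoring and trafficking, and the chloride carriers. Of its 22 members with enough reads in DRG, 0 passed in either sex by edgeR, 1 had an unadjusted p under 0.05 in each sex, and DESeq2 called 0 in each. In the average of the sexes edgeR called 0, 1 was under 0.05 before adjustment and DESeq2 called 1.

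**Figure D2:**
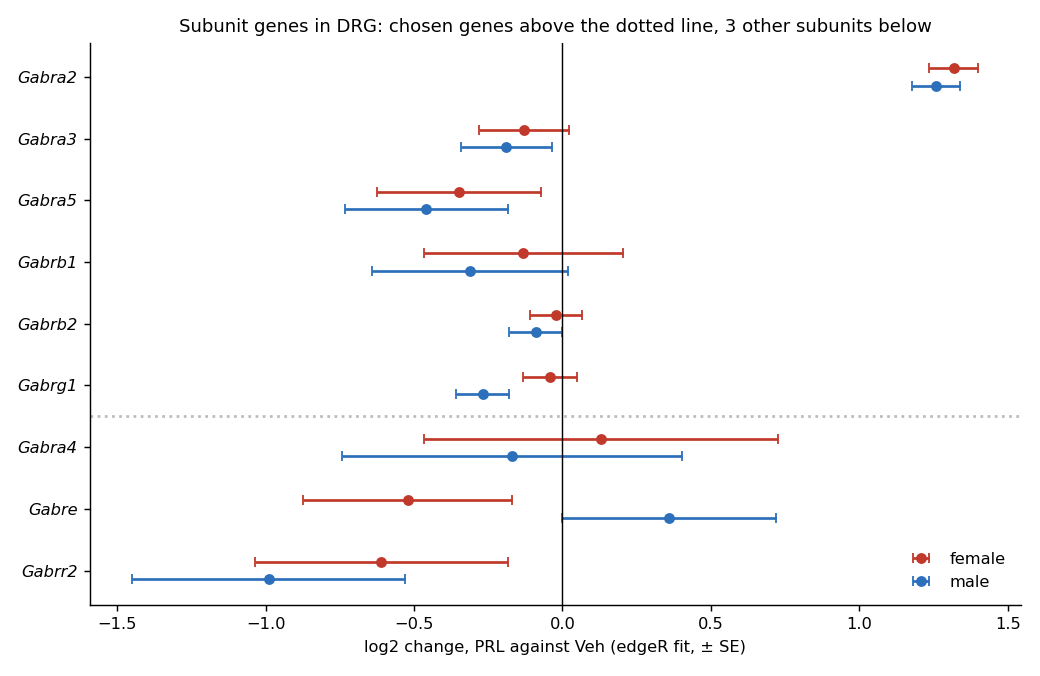
Log2 difference of PRL from Veh (edgeR, ± SE) for the 6 fitted members in female and male DRG, with Gabra4, Gabre and Gabrr2 below the dotted line. Gabra2 stands at 1.32 and 1.26, while the other 5 fitted members lie between -0.46 and -0.02.

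Gabra2 made up more of the alpha level in the PRL libraries of both sexes. In females the Gabra2 share of the length-scaled alpha level was 17.2 ± 0.93% with Veh and 36.2 ± 0.78% with PRL (SD, n = 3). In males it was 20.2 ± 1.8% and 39.2 ± 1.6%. The Gabra3 share was 22.4 ± 3.5% with Veh and 17.2 ± 0.98% with PRL in females, and 21.8 ± 2.7% and 15.6 ± 4.1% in males. The Gabra5 share was 7.54 ± 1.4% and 5.02 ± 1.9% in females, and 8.74 ± 1.3% and 5.22 ± 0.063% in males. The order of Gabra2 and Gabra3 with Veh depends on the length used: by coding length Gabra2 held 22.5% in female Veh DRG and stood above Gabra3.

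A share can fall because another grows, and the sums show the levels behind it. The summed alpha level was 23.1 ± 0.44 CPM per kb with Veh and 27.3 ± 1.2 with PRL in females, and 22.8 ± 0.98 and 28.1 ± 1.3 in males (SD, n = 3). The beta sum was 25.8 ± 3.1 and 24.4 ± 0.68 in females, and 27.8 ± 0.76 and 24.7 ± 1.3 in males. The gamma sum was 23.4 ± 2.3 and 22.4 ± 0.97 in females, and 25.8 ± 1.1 and 23.0 ± 1.7 in males. Within the beta family Gabrb2 made up 29.0% and 30.3% in females, and within the gamma family Gabrg1 made up 29.3% and 29.7%. In males Gabrb2 made up 28.0 ± 0.22% of the beta family with Veh and 29.7 ± 1.5% with PRL, and Gabrg1 29.8 ± 3.0% and 27.7 ± 1.3% of the gamma family.

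**Figure D3:**
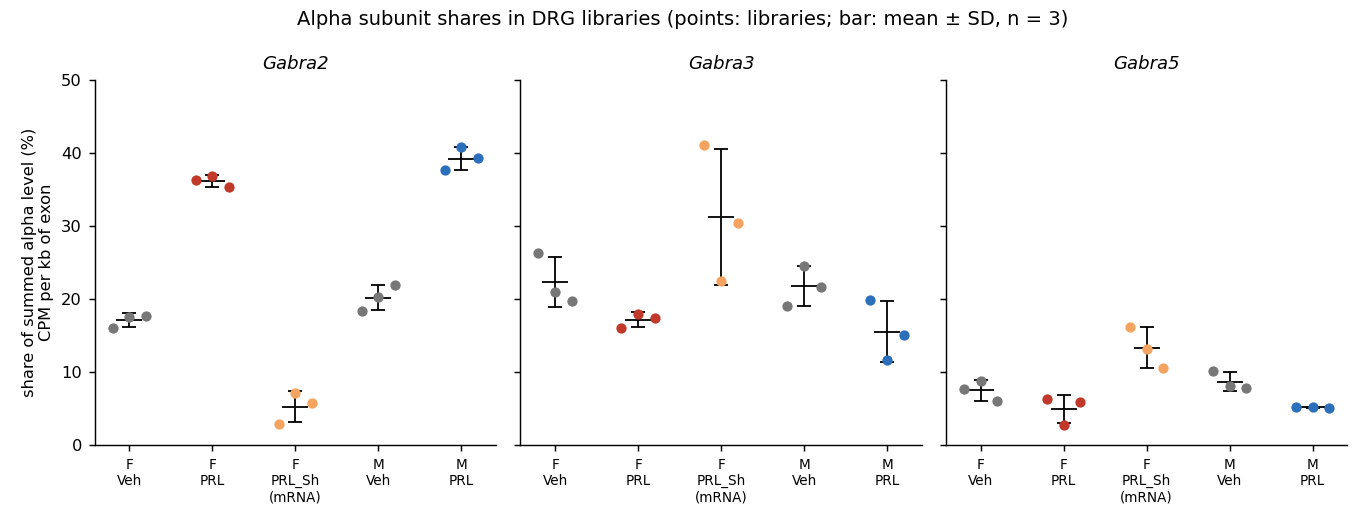
Shares of Gabra2, Gabra3 and Gabra5 in the summed level of all alpha subunit genes (CPM per kb of exon, percent) in each DRG library; points are libraries and bars show the mean ± SD (n = 3). Gabra2 takes 16.1 to 17.7% in female Veh and 35.3 to 36.8% in female PRL libraries, and 2.97 to 7.21% in the PRL_Sh libraries.

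The sexes are compared on the same PRL and Veh values that chose Gabra2, so the difference in their PRL response is also a description. It was 0.06 ± 0.11 (SE) for Gabra2 on the log2 scale, female minus male, and 0.23 ± 0.13 for Gabrg1, the largest among the 6 fitted members. By edgeR 0 of 6 members passed, 0 were under 0.05 before adjustment and DESeq2 called 0, in a comparison where 0% of all genes passed, and nothing is read from that count.

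Between females and males with both arms averaged, 0 of 6 members passed by edgeR where 0.0748% of all genes did, and DESeq2 called 0. The 1 member with an unadjusted p under 0.05 was Gabra2, lower in females by a log2 value of -0.19 ± 0.06 (adjusted p = 0.387, edgeR). The others differed by -0.15 to 0.09.

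Summed glial and fibroblast marker levels differed between the arms in DRG, while macrophage, keratinocyte and skeletal muscle sums overlapped in both sexes. Skeletal muscle markers varied widely, at 58.2 to 269.3 CPM with Veh and 142.1 to 4151 with PRL in females. In males they were 49.4 to 1402 and 581.4 to 2512. Summed glial markers were 18450 to 20644 CPM with Veh and 23600 to 30623 with PRL in females, and 15709 to 21951 and 25135 to 28255 in males. Summed fibroblast markers were 2902 to 4243 and 4894 to 6876 in females, and 2275 to 3156 and 4078 to 4872 in males. Neuronal markers were 11339 to 13434 with Veh and 11386 to 13361 with PRL in females. In males they were 13638 to 14705 and 12622 to 13704. The part of these shifts in the subunit levels was not tested.

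The genes whose DRG pattern was most like that of Gabra2 were ranked by Pearson correlation of log2 CPM over the 12 rRNA-depleted DRG libraries, among 13727 genes. These libraries share the arms that chose Gabra2, so the values are a description. Among the 8 highest were Wdfy1 at 0.97, Tmem181b-ps at 0.96, Emid2 at 0.94, and Cyp51, Hif1a, Nbea and Rab34 at 0.93. Wdfy1 encodes an endosomal adaptor and Tmem181b-ps is a pseudogene whose reads its near-identical relatives could share. Cyp51 encodes an enzyme of cholesterol synthesis.

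Wdfy1 and Tmem181b-ps stayed among the 8 without each of the 12 libraries in turn, while Cyp51 and Hif1a stayed in 5 of 12. Ranking by Spearman rho gave a list that shared 0 of the 8. No other member came near: Gabra3, Gabra5, Gabrb1, Gabrb2 and Gabrg1 correlated with Gabra2 at -0.51 to -0.21 and Gabrg3 at 0.40.

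**Figure D4:**
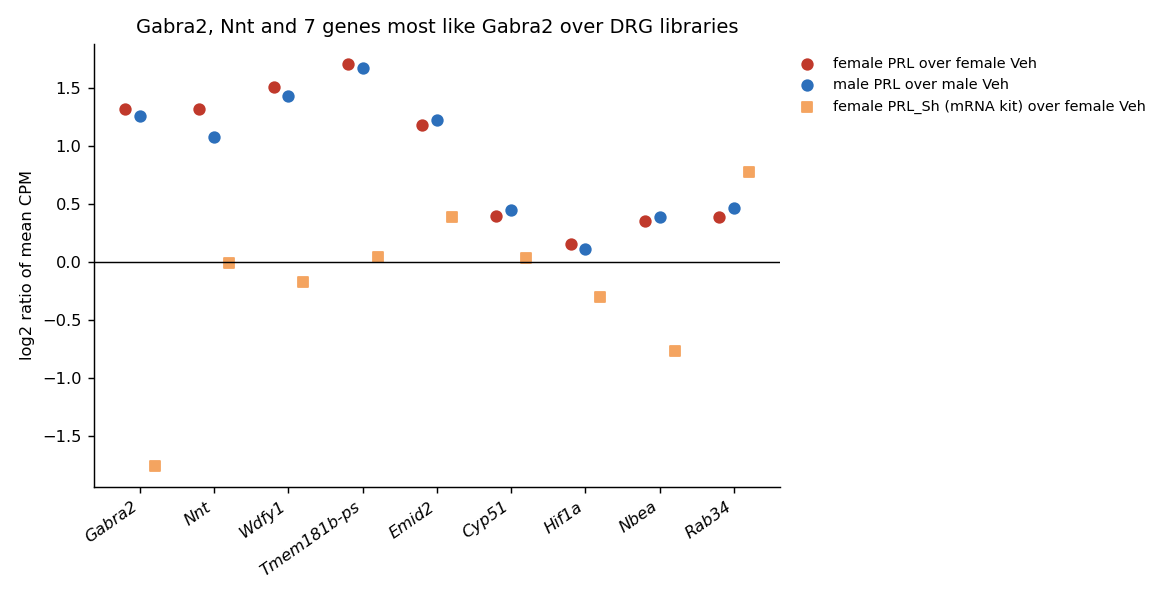
Log2 ratio of mean PRL to mean Veh CPM in female and male DRG (circles), and of female PRL_Sh to female Veh (squares), for Gabra2, Nnt and 7 of the 8 genes most like Gabra2 over 12 libraries. Tmem181b-ps lies at 1.70 and 1.67, Wdfy1 at 1.50 and 1.43, and Hif1a at 0.15 and 0.11.

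Nnt encodes the mitochondrial transhydrogenase. It is set beside Gabra2 because earlier results of these data had shown Nnt and Wdfy1 moving with Gabra2. Their values are therefore a description and no support. C57BL/6J is known to carry an intronic deletion that lowers Gabra2 message and a deletion of exons in Nnt, and related C57BL/6 substrains lack them. Nnt was at 22.1, 19.1 and 19.9 CPM in female Veh DRG and at 64.1, 48.3 and 39.6 CPM in female PRL DRG, and its correlation with Gabra2 was 0.92. The PRL_Sh DRG libraries, which also received PRL, averaged 20.2 CPM of Nnt and 27.3 CPM of Wdfy1. Female Veh DRG averaged 20.4 and 30.8 CPM, and kit and label cannot be told apart in PRL_Sh. In paw, where Gabra2 is close to absent, Nnt was higher with PRL by a log2 value of 1.65 in females and 2.08 in males. Wdfy1 was higher there by 0.99 and 1.19. These paw values are a description too, since both genes were named from earlier results of these data. PRL_Sh paw averaged 20.4 CPM of Nnt and 25.2 CPM of Wdfy1, beside 9.99 and 27.6 CPM in female Veh paw. Every label gives C57BL/6J, and whether the mice of the arms differed in substrain was not tested.

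In paw, Gabra3 was the one member with reads in all 12 rRNA-depleted libraries, 626 in total. Gabrb2 had 124 reads in 11 libraries, Gabrb1 6 in 4, Gabra2 5 in 5, Gabrg1 3 in 2 and Gabrg3 1 in 1. Gabra5 had 0 reads, which allows up to 0.0227 CPM over these libraries together (counting error only).

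Gabrb2 rose with PRL in the paw of both sexes. Whether its response differed between paw and DRG was not tested. Female paw gave 0.441, 0.168 and 0.274 CPM with Veh and 1.10, 1.86 and 2.82 CPM with PRL, or 10 against 62 reads. Male paw gave 0.0739, 0 and 0.0815 CPM with Veh and 1.50, 1.76 and 1.26 CPM with PRL, or 2 against 50 reads. No PRL library overlapped the Veh libraries of its sex. The rise was 2.66 ± 0.47 in females (adjusted p = 0.00442) and 4.38 ± 0.64 in males (adjusted p = 0.000782) on edgeR's log2 scale (SE).

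From the reads alone the PRL to Veh ratio was 6.50 in females (95% interval 3.31 to 14.2) and 23.7 in males (6.23 to 201.2), covering counting error only. Gabrb2 had enough reads for the fit only through the PRL libraries, so its place among the fitted members is no support. With no filter on low counts it still passed, at an adjusted p of 0.00524 in females and 0.000760 in males (edgeR). Over the 12 alternative settings in each sex its adjusted p stayed between 0.00170 and 0.0373 in females and between 0.000473 and 0.00566 in males. The background was wide: 7.55% of all genes passed in female paw (6.54% higher) and 22.4% in male paw (12.3% higher), and 24.5% and 41.5% did not overlap.

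Even with PRL the beta-2 message in paw was far below DRG, where it stood near 30 CPM. Fibroblast markers in paw summed to 6484 to 8512 CPM with Veh and 16677 to 24184 with PRL in females, and to 9610 to 15505 and 18731 to 30085 in males. Macrophage markers summed to 255.6 to 350.8 and 704.3 to 1128 CPM in females, and to 307.4 to 485.5 and 796.7 to 966.3 in males. Neuronal markers summed to 143.8 to 422.6 with Veh and 38.7 to 373.6 with PRL in females, and to 133.9 to 477.8 and 337.1 to 827.0 in males. Their part in the Gabrb2 result was not tested.

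Gabra3 did not pass in paw. Female paw gave 4.67, 3.86 and 2.19 CPM with Veh and 5.94, 4.41 and 5.26 with PRL, a log2 difference of 0.54 ± 0.26 (adjusted p = 0.273, edgeR). Male paw gave 5.03, 4.52 and 4.24 CPM with Veh and 6.42, 5.82 and 4.27 with PRL, at 0.26 ± 0.26 (adjusted p = 0.498). The arms overlapped in both sexes.

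**Figure D5:**
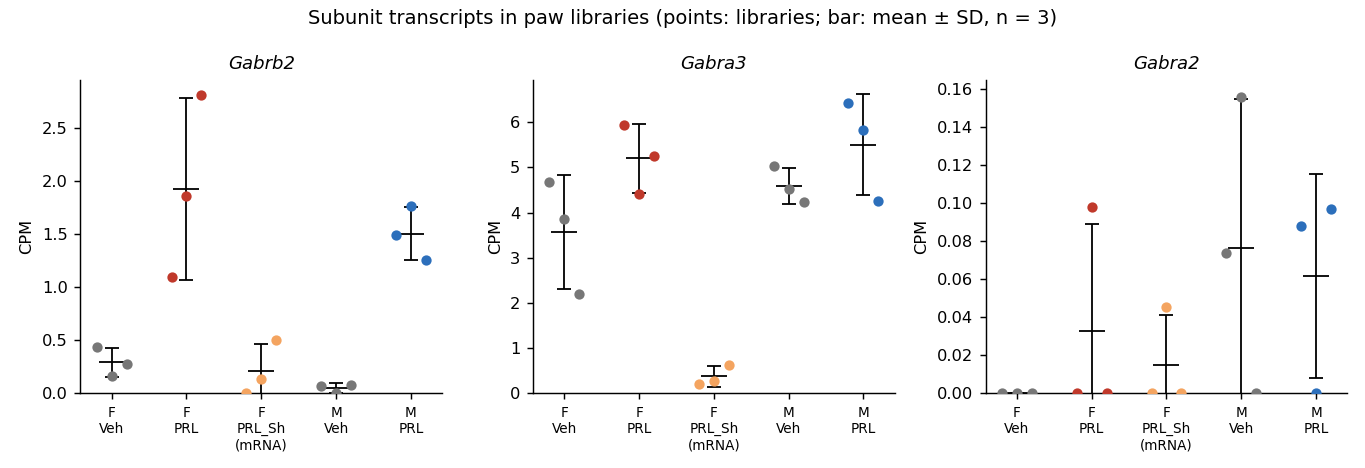
Levels of Gabrb2, Gabra3 and Gabra2 in the 15 paw libraries (CPM, TMM-scaled), by group; points are libraries and bars show the mean ± SD (n = 3). Gabrb2 lies at 1.10 to 2.82 CPM in the 6 rRNA-depleted PRL libraries and at 0 to 0.441 CPM in the 6 Veh libraries.

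Of the other subunits, Gabrp, which encodes the epithelial pi subunit, fell in male paw from 5.33 ± 0.94 to 1.22 ± 0.86 CPM (SD, n = 3), by 2.08 ± 0.38 on the log2 scale (adjusted p = 0.00284, edgeR). In female paw it was 4.23 CPM with Veh and 2.55 with PRL (adjusted p = 0.270). Keratinocyte markers summed to 41708 to 49878 CPM with Veh and 25508 to 34918 with PRL in male paw, and to 30220 to 40667 and 28537 to 38968 in female paw, and their part in the Gabrp result was not tested. Of the 3 fitted in male paw, 1 passed, Gabrp, where 22.4% of all genes did. In females 0 of 3 passed by edgeR, 1 was under 0.05 before adjustment and DESeq2 called 0.

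Of 17 fitted genes of the wider list, 2 rose and 3 fell in male paw, where 22.4% of all genes passed and 12.3% were higher. Nlgn2, a neuroligin of inhibitory synapses, rose from 29.7 to 44.7 CPM (adjusted p = 0.00924, edgeR), and Trak2, a trafficking adaptor, rose by a log2 value of 0.38 (adjusted p = 0.0332). Aldh5a1, which completes GABA breakdown, fell from 27.8 to 17.0 CPM (adjusted p = 0.0100), and Dbi, the diazepam binding inhibitor, fell from 181.7 to 116.7 CPM (adjusted p = 0.0111). In female paw 0 of 17 passed by edgeR, 2 were under 0.05 before adjustment and DESeq2 called 1.

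Between the tissues, all 6 fitted members were higher in Veh DRG than in Veh paw by edgeR, where 42.7% of all genes were higher and 85.8% differed. All but Gabra3 had 12 or fewer reads in Veh paw and were fitted only through their DRG reads, so that count is no support, and the reads are given instead. Gabra3 was the member most shared, at a read ratio of 4.46 (95% interval 3.90 to 5.10) and a log2 difference of 2.15 ± 0.14 (adjusted p = 9.08e-09, edgeR). Gabrb2 had 1979 reads in DRG and 12 in paw, a ratio of 167.9 (95.9 to 325.5). Gabra2 had 1619 and 2, a ratio of 824.1 (227.8 to 6811). Gabrg1 had 2234 and 2, a ratio of 1137 (314.4 to 9396), and Gabrb1 147 and 3, a ratio of 49.9 (16.7 to 244.7).

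Gabra5 had 329 reads in DRG and 0 in paw, at least 111.6-fold higher against a floor of 3 reads over the paw arm, while the exact 95% interval used above starts at 90.3. Gabrg3, with 33 and 0 reads, was at least 11.2-fold higher by the same floor, with an interval that starts at 8.61. Of the wider list, 16 of 22 were higher in DRG and 1, Dbi, was lower, where 42.7% of all genes were higher and 85.8% differed. Some of the list had too few reads for the paw fit and entered through DRG, so nothing is read from that count.

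The PRL_Sh DRG libraries differ from the others in kit as well as label, and these cannot be told apart. They also share the female PRL or Veh libraries they are set against. Gabra2 read 3.99, 9.03 and 7.43 CPM in PRL_Sh, all below the Veh libraries, a log2 difference of -1.96 from Veh and -3.28 from PRL. Gabrb2 read 9.07, 13.6 and 12.3 CPM, at -1.55 from Veh and -1.53 from PRL, and Gabrb1 stood at -2.35 and -2.22. Gabrg1 read 26.1, 33.3 and 26.8 CPM, a smaller log2 difference of -0.38 from Veh and -0.34 from PRL.

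Against PRL 5 of 6 members passed by edgeR where 63.4% of all genes did, and against Veh 4 of 6 where 61.2% did. PRL_Sh replicate 1 stood apart from its fellows in genes of inhibitory central neurons. It read 17.4 CPM of Gad1 against 0.642 and 0.981, 13.8 CPM of the vesicular GABA transporter Slc32a1 against 0.183 and 0.0377, and 62.8 CPM of the chloride exporter Slc12a5 against 1.42 and 1.59. The same library had the highest Gabra3 of its group at 34.5 CPM, beside 17.6 and 24.5, the highest Gabra5 at 9.96, beside 7.52 and 6.26, and the lowest Gabra2.

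Without it Gabra2 was at -1.68 from Veh and -3.00 from PRL, Gabra3 at -0.02 and 0.11, and Gabra5 at 0.39 and 0.73. The members that passed were then 3 against PRL and 3 against Veh. In the rRNA-depleted DRG libraries the central nervous system list summed to 117.6 to 159.0 CPM, and to 180.1 to 293.6 CPM in PRL_Sh.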

How the data were processed

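RNA from DRG and hind paw was sequenced as single reads of 50 nt. Per the submitters' processing notes, bcl2fastq, TopHat2 and HTSeq were used with the mouse build mm9; their versions, the annotation, and the HTSeq mode and strandedness were not given in the sources used here, so reads of overlapping or antisense genes cannot be told apart. The deposited files hold unnormalized counts of reads for each gene. The 5 summary lines stayed out of library sizes; multimapped reads were 31.7 to 55.5% of all reads. Counts were fitted in R 4.3.3 with edgeR 4.0.16 (filterByExpr, TMM, quasi-likelihood test, Benjamini-Hochberg adjustment over all fitted genes, threshold 0.05), with 1 fit for the 12 rRNA-depleted libraries of each tissue, 1 for Veh DRG and paw, and 1 for female DRG with PRL_Sh. DESeq2 1.42.0, RLE scaling, other filters, fewer groups, a replicate block and leaving out each library were alternatives. CPM are TMM-scaled. Exon lengths came from GENCODE vM21 transcripts that carry a RefSeq accession, and promoters from RefSeq. Intervals for read ratios are exact. The fits were tested on simulated data: of 100 genes changed 2-fold, 81% (females) and 74% (males) were recovered for PRL against Veh in DRG, 56% and 68% in paw, and 62% for the sex difference. False calls numbered 9 and 14 in DRG, 11 and 9 in paw, and 5 for the sex difference. Each simulation changed 200 genes, fewer than passed in paw, so the paw rates need not carry over.

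The members, the 12 other subunits, the 25 genes of the wider list and the markers were chosen with earlier results of these data known. Some listed genes are not reported here. Apart from these, all 7 members are named, and other listed genes where they passed (at most 4 by p) or reached 1 CPM in DRG. With the same exception, the 8 genes most like Gabra2 and its 4 neighbours on each side are named too.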

Additional observations from a re-analysis of the deposited data

How the results depend on the processing

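In the main fits 6 members were fitted in DRG and 2 in paw. Gabra2 was the 1 member past the threshold in DRG, and Gabrb2 the 1 in paw, under every alternative run in each sex. Over all genes 0.653% (females) and 0.517% (males) passed in DRG, and 7.55% and 22.4% in paw. The DRG contrast chose Gabra2, so its reruns are no support. Gabrb2 reached the paw fit only through its PRL libraries. Of 598 member values in the comparisons of arms, sexes and tissues, 598 kept their direction or stayed uncalled on the same side of the threshold. The number that reversed was 0. Of 144 values against or with PRL_Sh, 132 kept their call, 9 weakened and 3 strengthened; members past the threshold ranged from 3 to 6 against PRL (3 without PRL_Sh replicate 1) and from 3 to 5 against Veh when a library was left out.

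Counts over all genes moved more, and the cause was not tested. For PRL against Veh, female DRG had 96 genes, 200 by DESeq2, 34 with only the compared groups fitted and 20 to 171 without a library (20 without Veh replicate 2, 171 without PRL replicate 3). Male DRG had 76, 303 by DESeq2 and 25 to 73 (25 without Veh replicate 3). The average had 530, 839 by DESeq2 and 271 to 992 (271 without female Veh replicate 2, 992 without female Veh replicate 1). DESeq2 called 2 genes for the sex difference, where edgeR called 0, and 29 between the sexes, where edgeR called 11 (8 to 12 without a library). Female paw had 1111, 597 with only the compared groups and 579 to 1505; male paw had 3301, and 2017 to 2792, lowest without PRL replicate 3. DRG against paw had 13234 to 13452, PRL_Sh against PRL 8484 to 9062 and against Veh 8127 to 8502.

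With coding length the Gabra2 share of the alpha level in female Veh DRG was 22.5%, against 17.2%. Of the 8 genes most like Gabra2, 0 were shared with the Spearman ranking and 4 to 7 without a library (4 without female Veh replicate 1, male PRL replicate 3 or male Veh replicate 2).

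Whether the replicate numbers pair the samples was not settled, since only same-numbered libraries were correlated. In DRG 4 of 18 such correlations were over 0.1, with a range of -0.45 to 0.44. In paw 3 of 18 were, with a range of -0.56 to 0.47. With the replicate block, 92 genes passed for females and 61 for males in DRG, 899 and 2906 in paw, and no member changed its call.

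Depth limits Gabrg3 in DRG and every member but Gabra3 in paw. That includes Gabrb2, with 10 reads in female Veh paw and 2 in male Veh paw.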
